A study of Homo sapiens with 4 samples.

Results

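The short arm of chromosome 5, 5p, was examined through the regions with histone H3 lysine 27 acetylation (H3K27ac) that 4 tables place on it. A region was taken as a member where its chromosome was 5 and its end lay below 48 Mb, a boundary that falls at the centromere in a gap without regions of at least 3.92 Mb. The members numbered 908 of 45672 regions. The arm was chosen by the number of sgSETD8 regions on it that have no sgNT counterpart in the sparser pair of tables, so those counts and every measure of the same contrast are given as description, without a test.

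The cells were Kasumi-1, an established line of acute myeloid leukaemia with the translocation t(8;21). The control group held 2 samples of wild-type genotype with the guide sgNT, and the other group held 2 samples with the guide sgSETD8, in which SETD8 was knocked out with CRISPR/Cas9. Each library was made from 100000 cells by CUT&Tag, where a transposase tethered to an antibody cuts and tags the DNA next to a histone mark. The sample titles and the antibody labels name H3K27ac, while the design text of the series names H3K27me1. Nothing in the labels says whether the samples of a group were separate cultures, or whether the knockout cells were a pool or a clone. Enhancer tables of this kind do not show the loss of SETD8 itself, so the knockout was not checked here.

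One pair of tables, called sparse here, held 5186 sgNT and 7276 sgSETD8 regions. The other pair, called dense, held 15149 sgNT and 18061 sgSETD8 regions, which were wider at the median. Of 9 marker genes of t(8;21) leukaemia, 8 had a region in each dense table and 5 in each sparse table, while POU4F1 had none in any. RUNX1T1, the fusion partner of RUNX1, had no region in the sparse sgNT table, and CEBPA had none in the sparse sgSETD8 table. Of 6 markers of other blood cells, 0 and 1 (MS4A1) had a region in the sparse tables and 2 (CD3E and CD3D) in each dense table. Of 3 non-blood markers, just EPCAM had a region, in dense sgSETD8 alone. With 2 tables a group, an exact two-sided permutation test cannot go below p = 0.333, so no test between the groups was made and every difference below is between tables. In bulk material, acetylation in more cells and stronger acetylation per cell cannot be told apart.

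H3K27ac lies on nucleosomes of active enhancers and promoters. SETD8, also called KMT5A, is the methyltransferase that places a single methyl group on lysine 20 of histone H4. The arm 5p carries TERT, the catalytic subunit of telomerase, near its telomere. It also carries a long gene-poor stretch with a family of neural cadherins. Nearer the centromere lie the cohesin loader NIPBL, the interleukin 7 receptor IL7R and the prostaglandin E2 receptor PTGER4.

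Upstream sequences of 4 genes show what lies under the few wide regions that reached a transcription start on the arm. They were picked after the values were seen. GOLPH3 (a Golgi phosphoprotein), NIPBL and BRIX1 (a ribosome assembly factor) had starts covered in both dense tables, and DROSHA (the nuclease that starts microRNA processing) had its start covered in the dense sgSETD8 table alone. Each run is the 250 bases before the start, 5′ to 3′ on the strand of the gene, from RefSeq on GRCh38.p14. The windows are chr5:32174320-32174569 on the minus strand for GOLPH3, chr5:36876519-36876768 on the plus strand for NIPBL, chr5:34915461-34915710 on the plus strand for BRIX1 and chr5:31532094-31532343 on the minus strand for DROSHA. Capitals mark the letters CGGAAG, the core bound by ETS factors, and TGTGGT, the core bound by RUNX factors, or the same letters on the other strand (CTTCCG and ACCACA).
GOLPH3: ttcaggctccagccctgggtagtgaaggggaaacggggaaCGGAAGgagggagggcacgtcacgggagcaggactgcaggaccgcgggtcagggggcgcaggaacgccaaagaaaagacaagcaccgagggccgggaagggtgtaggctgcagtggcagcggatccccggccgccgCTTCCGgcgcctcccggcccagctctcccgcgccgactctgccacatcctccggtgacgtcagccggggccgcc
NIPBL: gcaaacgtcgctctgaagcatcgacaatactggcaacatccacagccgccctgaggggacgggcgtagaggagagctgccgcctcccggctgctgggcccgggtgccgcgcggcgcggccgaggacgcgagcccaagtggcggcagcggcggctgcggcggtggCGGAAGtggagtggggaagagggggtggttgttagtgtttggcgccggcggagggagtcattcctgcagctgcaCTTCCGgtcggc
BRIX1: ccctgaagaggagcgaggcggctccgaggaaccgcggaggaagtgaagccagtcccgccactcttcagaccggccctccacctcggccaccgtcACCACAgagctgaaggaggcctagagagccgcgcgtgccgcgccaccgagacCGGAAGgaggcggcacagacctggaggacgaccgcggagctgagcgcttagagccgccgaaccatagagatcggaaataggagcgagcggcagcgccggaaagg
DROSHA: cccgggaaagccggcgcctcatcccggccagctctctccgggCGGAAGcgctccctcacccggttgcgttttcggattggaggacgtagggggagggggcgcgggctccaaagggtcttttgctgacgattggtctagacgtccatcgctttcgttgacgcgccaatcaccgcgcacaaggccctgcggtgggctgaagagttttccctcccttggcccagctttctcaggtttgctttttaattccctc
GOLPH3 and NIPBL each held 2 matches of the ETS-type core and none of the RUNX-type core, BRIX1 held 1 of each, and DROSHA held 1 of the ETS type. The windows were rich in G and C, at 70.4% in GOLPH3, 70% in NIPBL, 67.6% in BRIX1 and 62% in DROSHA, against a mean of 57.2% over all 35116 starts.

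Searched on both strands with no overlap between the motifs, CGGAAG was in the upstream window of 16.5% of all starts, 12.5% of the 391 starts on 5p and 29.4% of the 68 starts on 5p that a dense region covered. Over all chromosomes, 22.9% of the starts covered in a dense table held it. TGTGGT was in 11% of all starts, 12.5% of the starts on 5p and 16.2% of those covered on 5p, and over all chromosomes 9.85% of the starts covered in a dense table held it. Among the 35 starts on 5p covered in both dense tables, 14 held the ETS-type core and 9 the RUNX-type core. Among the 28 covered in dense sgSETD8 alone, 6 held the ETS-type core and 2 the RUNX-type core. Several of these starts belong to one gene or to a divergent pair, so their windows can overlap. The shares of starts covered in both dense tables or in dense sgSETD8 alone were not computed over all chromosomes. A match is a stretch of letters and not a bound site.

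The number of 5p regions was 79 in sparse sgNT, 441 in sparse sgSETD8, 163 in dense sgNT and 225 in dense sgSETD8. As a share of the table this was 1.52% (95% exact interval 1.21% to 1.89%), 6.06% (5.52% to 6.63%), 1.08% (0.918% to 1.25%) and 1.25% (1.09% to 1.42%), where the intervals cover counting alone. One table stood apart: sparse sgSETD8 had the highest share, and the intervals of both dense tables overlapped. The log2 ratio of the shares, sgSETD8 over sgNT, was 1.99 in the sparse pair and 0.21 in the dense one, which gives 1.10 ± 1.26 (mean and SD, n = 2 pairs). The difference between the pairs was larger than the mean itself, so the size of the excess on 5p rests on the sparse sgSETD8 table and without that pair is 0.21.

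By covered length sparse sgSETD8 was again highest, and sparse sgNT was lowest. The 5p regions spanned 94.2 kb, 556 kb, 1807 kb and 2408 kb, which is 1.22%, 8.07%, 1.36% and 1.58% of the length covered in the table. The log2 ratios of these shares were 2.73 (sparse) and 0.21 (dense), with 1.47 ± 1.78 as mean and SD (n = 2 pairs). The dense pair thus gave the same value by length as by number of regions.

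Set beside the 41 chromosome arms with at least 10 regions in every table, 5p was in place 1 in the sparse pair and in place 6 in the dense pair. The other arms ran from -1.31 to 0.97 in the sparse pair, with a median of -0.16, and the next highest was 4p. In the dense pair they ran from -0.47 to 0.34, with a median of 0.03, and the highest was again 4p. The long arm of the same chromosome, 5q, was at -0.29 in the sparse pair and 0.11 in the dense pair.

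**Figure D1:**
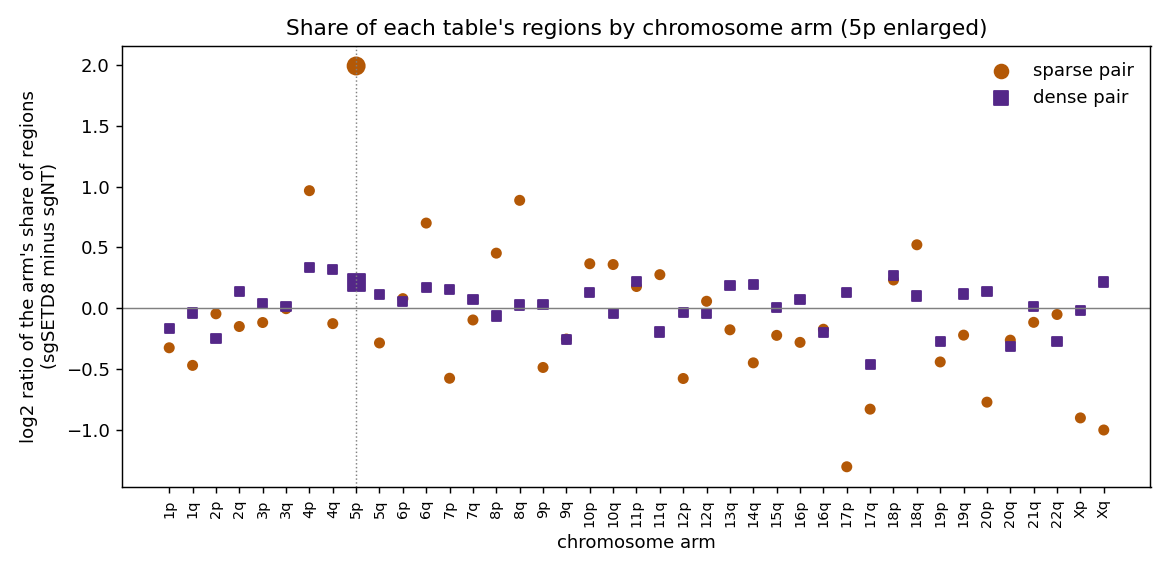
Log2 ratio of each chromosome arm's share of regions, sgSETD8 minus sgNT (vertical axis), by arm (horizontal axis), for the sparse pair (circles) and the dense pair (squares). The short arm 5p (large symbols) stands at 1.99 in the sparse pair, above 4p at 0.97, and at 0.21 in the dense pair, inside the range of the other arms.

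Per Mb of arm, 5p held 1.65, 9.19, 3.40 and 4.69 regions in the order sparse sgNT, sparse sgSETD8, dense sgNT, dense sgSETD8. The medians over the other arms were 1.69, 2.54, 5.05 and 6.26. The arm was therefore near the median in sparse sgNT, where it was in place 23 of the 41, and among the emptier arms in both dense tables, in places 36 and 35. In sparse sgSETD8 it was in place 1, above 19p at 4.96 regions per Mb.

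The extra regions of the sparse sgSETD8 table were spread over the whole arm and ended at the centromere. In 12 windows of 4 Mb from the telomere on, sparse sgNT held 7, 3, 6, 8, 5, 2, 0, 1, 15, 16, 16 and 0 regions. Sparse sgSETD8 held 60, 35, 45, 38, 32, 26, 40, 22, 35, 37, 52 and 19. No window of the second table was empty, and its lowest window held more than the highest window of the first.

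Dense sgNT held 12, 5, 12, 15, 3, 1, 0, 3, 30, 34, 47 and 1 regions in the same windows. Dense sgSETD8 held 15, 8, 15, 18, 10, 1, 0, 4, 52, 46, 53 and 3. In both, the regions gathered in the 3 fullest windows, near the centromere, with 68.1% and 67.1% of the 5p regions. In sparse sgNT the 3 fullest windows held 59.5%, and in sparse sgSETD8 35.6%. Over the 12 windows, which share one genome and its gene content, Pearson's r with the dense sgNT counts was 0.96 for sparse sgNT, 0.97 for dense sgSETD8 and 0.49 for sparse sgSETD8.

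On 5q, 34 windows held a median of 5 regions in each sparse table, and the highest window held 16 in each. Every 5p window of sparse sgSETD8, from 19 regions up, was thus above every 5q window of the same table. In dense sgNT the 5q windows held a median of 17 and in dense sgSETD8 24, against 8.5 and 12.5 on 5p.

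**Figure D2:**
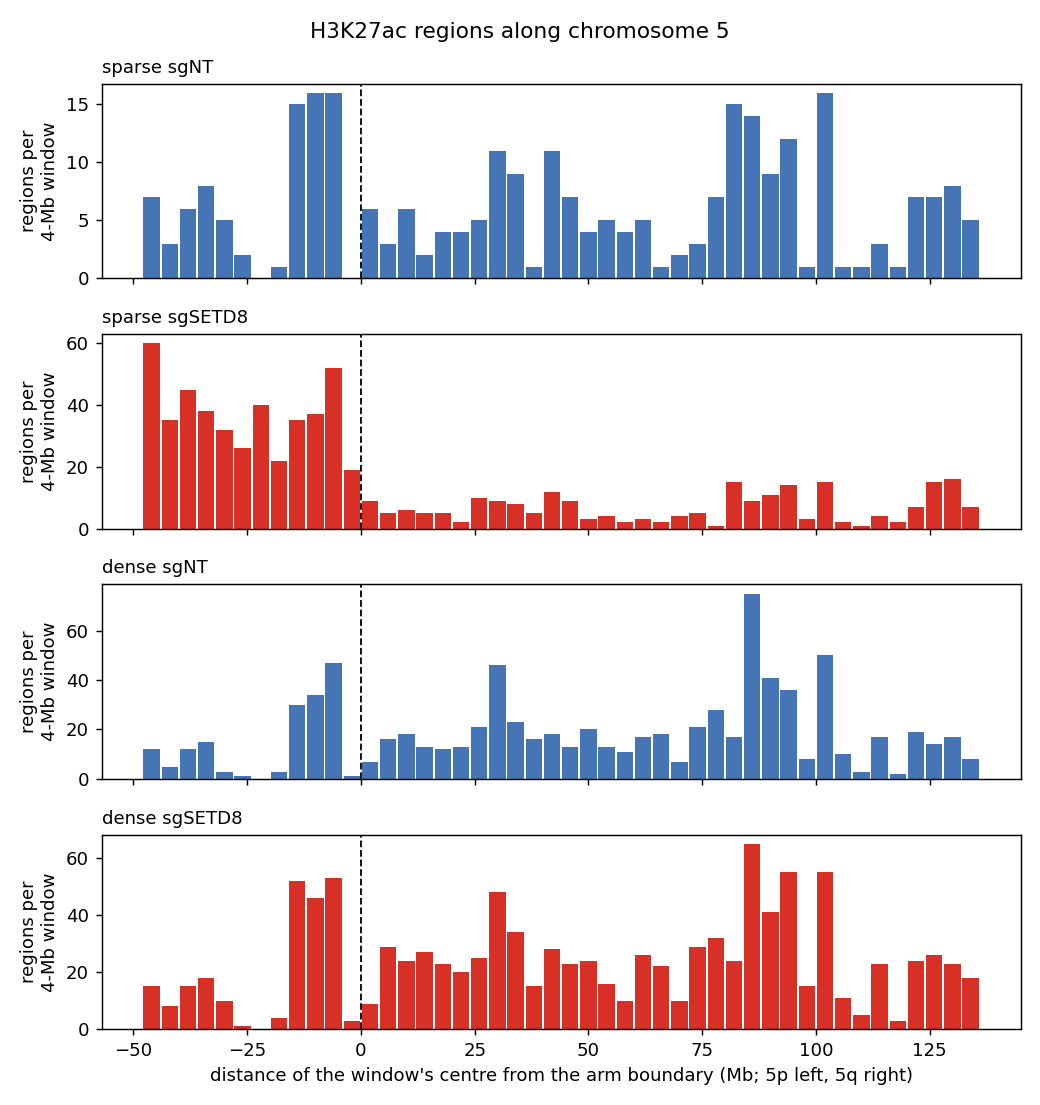
Regions per 4-Mb window (vertical axis, a separate scale for each table) along chromosome 5, as distance of the window's centre from the boundary between the arms in Mb (horizontal axis), with 5p left of the dashed line. Sparse sgSETD8 holds 19 to 60 regions in each 5p window and at most 16 in any 5q window. In the other 3 tables the 3 fullest 5p windows lie side by side, and some other 5p windows are at or near 0.

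The arm was divided after its values were seen into 4 stretches. The first 8 Mb, which hold TERT and 51 protein-coding genes, had 10, 95, 17 and 23 regions in the order sparse sgNT, sparse sgSETD8, dense sgNT, dense sgSETD8. From 8 to 20 Mb, with TRIO and MYO10 among 38 protein-coding genes, the counts were 19, 115, 30 and 43. From 31 Mb to the end of the arm, with 73 protein-coding genes, they were 48, 147, 115 and 158.

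The stretch from 20 to 31 Mb holds the cadherin genes CDH9, CDH10 and CDH12 and counts just 5 protein-coding genes in all, while CDH18 lies partly and CDH6 wholly outside it. It had 2, 84, 1 and 1 regions. The stretch held 19% of the 5p regions of sparse sgSETD8, at 7.64 regions per Mb against 8.65 from 31 Mb on. Of those 84 regions, 0 shared a base with a region of either dense table. Cadherin genes code for calcium-dependent adhesion proteins that the brain uses widely, and both dense tables left the stretch nearly bare.

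Regions without a counterpart were those that share no base with a region of the other group in the same pair. On 5p they numbered 51 of 79 in sparse sgNT (64.6%, exact interval 53% to 75%), where the whole table had 79.1%. In sparse sgSETD8 they numbered 413 of 441 (93.7%, 91% to 95.7%), where the whole table had 85.1%. These are the values that chose the arm, and nothing is read from the comparison with the whole table.

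In dense sgNT 23 of 163 had no counterpart (14.1%, 9.16% to 20.4%), against 22.7% of the whole table. In dense sgSETD8 88 of 225 had none (39.1%, 32.7% to 45.8%), against 34% of the whole table. The dense sgSETD8 share on 5p was close to that of 5q, 39.9%, so the arm did not stand apart from its neighbour there. Both dense shares move with the rule of overlap: where a counterpart must cover at least 50 percent of the region, they are 26.4% and 57.8%.

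The unmatched regions also differed in how far they lay from anything in the other group, a measure of the contrast that chose the arm. The median distance to the nearest sgNT region was 351 kb, and 325 of the 413 lay more than 100 kb away. Off the arm the same table had a median of 147 kb, with 3410 of 5780 beyond 100 kb. In dense sgSETD8 the median distance was 31.7 kb, and 19 of the 88 lay more than 100 kb away, against 28.8 kb and 1127 of 6055 off the arm. In the sgNT tables the medians were 23.4 kb and 12.6 kb, with 5 of 51 and 2 of 23 regions beyond 100 kb, against 72.2 kb and 17.8 kb off the arm. On 5p, most unmatched regions of the sgNT tables thus lay within 100 kb of a region seen in the other group.

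The sparse regions were also compared with the dense tables. Of the 79 sparse sgNT regions on 5p, 61 shared a base with a dense region of either group (77.2%, exact interval 66.4% to 85.9%), where the whole table had 79%. Of the 441 sparse sgSETD8 regions, 53 did so (12%, 9.13% to 15.4%), where the whole table had 29.3%. On 5q the shares were 80.0% and 35.7%. The sgNT share on 5p was close to that of its table, and the sgSETD8 share on 5p was lower than that of its table and that of 5q. Because the arm was chosen by sgSETD8 regions that sparse sgNT lacks, this difference is given as description.

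Keeping just the regions found in the other pair left 61 of 4095 in sparse sgNT (1.49%) and 53 of 2132 in sparse sgSETD8 (2.49%), a log2 ratio of 0.74. The same step in the dense pair left 53 of 3873 and 64 of 4159, a log2 ratio of 0.17. The mean of both was 0.45. Regions seen in both pairs therefore gave a smaller ratio on 5p than all regions together. The step also keeps dense regions that overlap sparse sgSETD8 alone, the table whose unmatched regions chose the arm. The direction of both ratios is thus given as description.

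Joined across tables, the 908 regions formed 641 separate loci. Of these, 383 (59.8%) were covered in sparse sgSETD8 alone, 80 in both dense tables and no sparse table, 76 in dense sgSETD8 alone, 17 in dense sgNT alone and 13 in sparse sgNT alone. Loci of the sparse and the dense sgSETD8 table that both sgNT tables lack numbered 5, and the reverse pattern had 1 locus. Loci were not counted in this way off the arm, so nothing particular to 5p is read from these counts. Over the whole sparse sgSETD8 table, 85.1% of regions had no sparse sgNT counterpart, and 29.3% shared a base with a dense region.

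A total of 23 loci were covered in all 4 tables. A locus joins overlapping regions of any table, so regions of different tables within it need not share a base. At NIPBL-DT, for example, the sparse sgNT region lay 11.1 kb from the nearest sparse sgSETD8 region. The widest was at GOLPH3 and MTMR12 (a myotubularin-related protein without phosphatase activity), chr5:32095070-32310808, 216 kb. The next was at TRIO, a guanine nucleotide exchange factor, chr5:14143849-14350624, 207 kb. The others were assigned to MARCH6 and CMBL, ANKRD33B, DAP, NPR3, NIPBL, PTGER4 (2 loci), GDNF (2 loci), SUB1, SPEF2 and SLC1A3. Further loci were assigned to ZNF131, ZNF622, TARS, DNAJC21, EXOC3-AS1 and NIPBL-DT, with LOC and microRNA genes making up the rest. The 2 loci assigned to GDNF lay inside the body of WDR70, and the body of GDNF held no region in any table.

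Regions were ranked within each table by the authors' signal. The share on 5p among the best-ranked 20 percent of each table was 1.64% in sparse sgNT, 6.74% in sparse sgSETD8, 1.75% in dense sgNT and 2.21% in dense sgSETD8. In the lowest-ranked 20 percent it was 1.64%, 4.46%, 0.363% and 0.443%. The sparse sgSETD8 excess ran through all ranks, and both dense tables had more 5p regions at the top of the ranking than at its end.

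**Figure D3:**
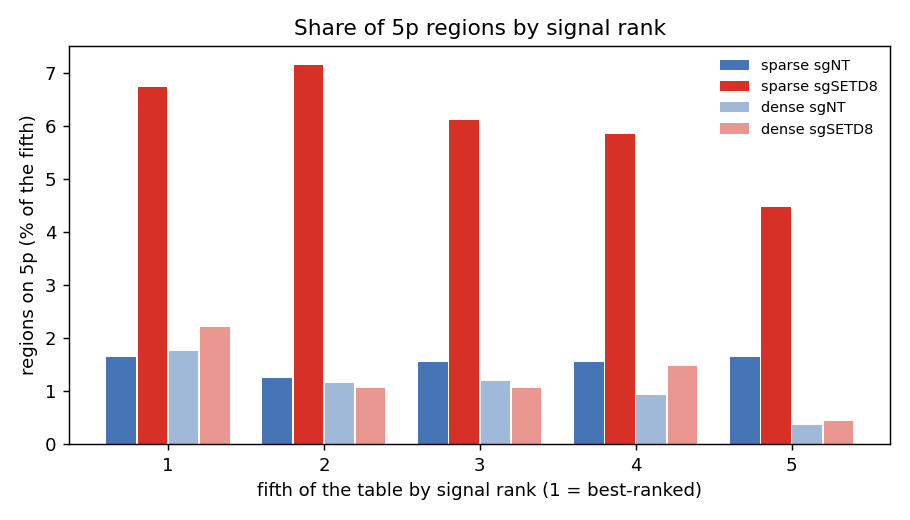
Share of regions that lie on 5p (vertical axis, percent) in 5 equal groups of a table by signal rank (horizontal axis, 1 is best-ranked), with 1 bar per table. Sparse sgSETD8 runs from 4.46% to 7.15% and lies above the other tables in all groups, and both dense tables are lowest in the last group, at 0.363% and 0.443%.

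TRIO ranked 1 of all regions genome-wide in both dense tables. Its dense sgNT region, chr5:14143867-14305702, joined 28 peaks at a signal density of 2.68 per bp, and its dense sgSETD8 region, chr5:14143849-14350624, joined 35 peaks at 1.95 per bp. In the sparse tables TRIO was cut into 5 regions in sgNT, the best ranked 96, and 4 in sgSETD8, the best ranked 54. TRIO was thus among the strongest acetylated loci of every table. The scale of the density is not stated, so densities of different tables are set side by side here, and their ratio is given below at matched dense regions alone.

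GOLPH3 was next on the arm in the dense tables, at rank 17 in sgNT and 13 in sgSETD8, with 46 and 48 joined peaks. NIPBL ranked 96 and 84, ANKRD33B 126 and 85, TENT4A (a non-canonical poly(A) polymerase) 145 and 172, DAP (a death-associated regulator of autophagy) 204 and 166, and the best PTGER4 region 181 and 119. The leading 5p regions of both dense tables were thus largely the same loci, whether the cells carried sgNT or sgSETD8. MIR10397 ranked 164 in dense sgNT, and MARCH6, over overlapping sequence, 139 in dense sgSETD8. Further down, CCT5, a subunit of the cytosolic chaperonin, ranked 383 in dense sgNT, and NNT-AS1, beside the mitochondrial transhydrogenase NNT, ranked 217 in dense sgSETD8.

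PTGER4 led both sparse tables on 5p. Its best sgNT region, chr5:40486371-40488029, ranked 37 at a density of 18.6 per bp, and its best sgSETD8 region, chr5:40474397-40488248, ranked 24 at 2.38 per bp. Both lie upstream of the gene in intergenic sequence, inside a locus that all 4 tables cover. Other leading regions of sparse sgNT lay at EXOC3-AS1 (rank 207), SPEF2 (257) and FLJ32255 (273). SPEF2 is a sperm flagellar protein that also led in sparse sgSETD8 (rank 178), with ANKRD33B (101), MTMR12 (114) and the zinc finger gene ZNF131 (163).

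Among the sparse sgSETD8 regions without a counterpart, the best ranked was assigned to LPCAT1, a lysophosphatidylcholine acyltransferase of membrane lipid synthesis. It ran over chr5:1539330-1565672, ranked 69, joined 4 peaks at a density of 0.516 per bp, and lay 61.6 kb from the nearest sgNT region. Neither dense table had a region there. ZDHHC11B, of the palmitoyltransferase family, ranked 189 and NPR3, the clearance receptor for natriuretic peptides, ranked 196, followed by ANXA2R (197), FGF10-AS1 (235), FLJ32255 (251), LINC01018 (341), LINC02120 (357), LINC02160 (364) and SELENOP (394), a selenium carrier.

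Of these 10 regions, just the one at ANXA2R was covered in both dense tables, and those at NPR3 and LINC02160 were covered in dense sgSETD8 alone. The other 7 were in neither dense table. In sparse sgNT the picture was the reverse. Its best unmatched regions lay at FLJ32255 (rank 273), ANKRD33B (546), TRIO (655), CDH18 (927), CTNND2 (1230), GOLPH3 (1262), DAB2 (1328) and PTGER4 (1428), and all of these were covered in both dense tables.

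In dense sgSETD8, the best unmatched region lay in an intron of MYO10, an unconventional myosin of filopodia. It ran over chr5:16828675-16854074, ranked 1716, joined 4 peaks and lay 265 kb from the nearest dense sgNT region. Further MYO10 regions without a counterpart ranked 3495, 3805 and 4057. Over the whole MYO10 gene, sparse sgNT held 0 regions, sparse sgSETD8 1 region of 0.488 kb, dense sgNT 0 and dense sgSETD8 6 regions that covered 70.4 kb with 17 peaks. MYO10 thus had wide acetylated regions in one table and close to none in the other 3, including the other sgSETD8 table.

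The remaining leading unmatched regions of dense sgSETD8 lay at SLC1A3, a glutamate transporter (rank 3437), C1QTNF3 (3513), TRIP13, an ATPase of the spindle checkpoint (3570), RAI14, an actin-associated protein (3791), RETREG1, a receptor for the autophagy of endoplasmic reticulum (4469), and WDR70 (4641). In dense sgNT the best unmatched region ranked 6905 and lay at TRIP13, 9.66 kb from the dense sgSETD8 region of the same gene. It was followed by regions at MIR4279 (7008), PRKAA1, a catalytic subunit of the energy sensor AMPK (8039), MIR579 (8362) and NUP155, a nuclear pore scaffold (8559 and 8566), then LRRC14B (8935), ATPSCKMT (8946) and SNORD170 (8961). The dense sgNT regions that dense sgSETD8 lacked were thus low in the ranking.

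Where the regions lie gave a further difference between sparse sgSETD8 and the other tables. Intergenic sequence took 43% of the 5p regions of sparse sgNT, 63.0% of sparse sgSETD8, 26.4% of dense sgNT and 29.3% of dense sgSETD8. Off the arm the shares were 37%, 45.9%, 24.5% and 25.3%. The median distance from a 5p region to the nearest annotated start was 48.2 kb, 90.4 kb, 16.9 kb and 24.5 kb, and 206 of the 441 sparse sgSETD8 regions lay more than 100 kb from a start.

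LINE elements, the long interspersed repeats to which L1 belongs, were the annotation of 15.2% of the 5p regions in sparse sgNT, 33.6% in sparse sgSETD8, 7.98% in dense sgNT and 11.6% in dense sgSETD8. The rest of each table had 10.2%, 18.9%, 13% and 13.9%. Of the 148 LINE regions of sparse sgSETD8 on 5p, 136 were L1. LTR repeats, the remains of retroviruses, were the annotation of 7.59%, 18.8%, 10.4% and 14.2% of 5p regions, against 8.46%, 12.1%, 6.94% and 7.25% elsewhere. The LTR share was thus higher on 5p than elsewhere in every table but sparse sgNT.

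Within sparse sgSETD8, the 388 regions on 5p that no dense table held were 68.0% intergenic, 34.8% in LINE and 20.6% in LTR repeats, at a median density of 0.782 per bp. The 53 that a dense table held were 26.4% intergenic, 24.5% in LINE and 5.66% in LTR repeats, at a median density of 1.33 per bp. The median distance to a start was 101 kb and 29.9 kb. Off the arm the same split of this table gave 14% and 7.74% in LTR repeats, densities of 0.737 and 1.15 per bp, and 36.9 kb and 24.8 kb to a start. Regions seen again in the other pair thus lay nearer to starts, had a lower LTR share and a higher density on 5p and off it alike.

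**Figure D4:**
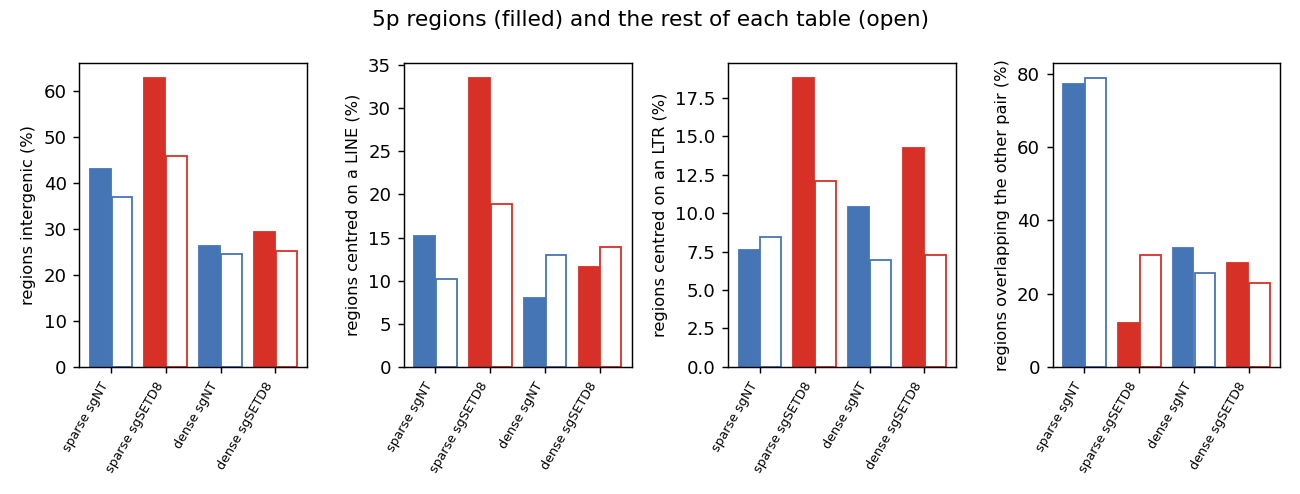
Percent of 5p regions (filled bars) and of all other regions (open bars) that are intergenic, centred on a LINE, centred on an LTR repeat, or overlapping a region of the other pair, for each table. On 5p, sparse sgSETD8 has 63.0% intergenic and 33.6% LINE regions, the most of the 4 tables, and 12% found in the other pair, the fewest.

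Width and density on 5p followed the table. The median width was 462 bp in sparse sgNT, 364 bp in sparse sgSETD8, 2628 bp in dense sgNT and 1997 bp in dense sgSETD8. In sparse sgSETD8, 126 regions (28.6%) had the shortest width of the table, 274 bp, and off the arm the share was 29.8%. Off the arm the median widths were 512, 339, 1507 and 1499 bp. The sparse sgSETD8 regions on 5p were therefore about as short as those elsewhere in that table, and the dense regions on 5p were wider than elsewhere.

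The median density was 1.52 per bp in sparse sgNT and 0.815 in sparse sgSETD8 on 5p, against 1.49 and 0.810 elsewhere. In the dense pair it was 1.13 in sgNT and 0.923 in sgSETD8, against 0.754 and 0.586 elsewhere. Dense 5p regions were thus denser in signal than those of the rest in both groups.

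Genes were counted through the deposited annotation, which pairs each region with 1 gene and its distance to that gene's start, so a region can lie outside the body of its gene. Sparse sgNT assigned 5p regions to 54 genes, sparse sgSETD8 to 171, dense sgNT to 97 and dense sgSETD8 to 114, with 212 genes in any table and 38 in all 4. Between the sparse tables, 148 of 179 genes on 5p had more regions in sgSETD8 and 16 had fewer (82.7% and 8.94%), where off the arm the shares were 50.6% and 34.0%. Between the dense tables, 54 of 121 had more and 16 fewer (44.6% and 13.2%), where off the arm they were 37.2% and 21.2%. Genes with more regions in sgSETD8 outnumbered those with fewer on and off the arm in both pairs.

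A total of 12 genes had regions in each sgSETD8 table but in neither sgNT table, among them the cytokine receptor OSMR, the relaxin receptor RXFP3, RETREG1, the ubiquitin ligase MARCH6 and the F-box protein FBXO4. For 3 of the 12, FBXO4, MARCH6 and MIR6075, the dense sgSETD8 region shared bases with a dense sgNT region filed under another gene. At FBXO4 the sgSETD8 region chr5:41906247-41928544 covered the sgNT region chr5:41906364-41922297 filed under C5orf51, which is also the single gene with the reverse pattern. In the dense pair FBXO4 and C5orf51 thus differed in the label of one region and not in its presence. In the sparse pair the FBXO4 region of sgSETD8 lay 42.7 kb from any sgNT region, and the C5orf51 region of sgNT lay 24.6 kb from any sgSETD8 region. Genes with either pattern were not counted off the arm, and in each pair the sgSETD8 table holds more regions. The arm was also chosen by sgSETD8 regions that sparse sgNT lacks. Both gene counts are therefore given as description, and nothing particular to the arm is read from them.

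For the other 9 no sgNT region lay at the same place in either pair. Their dense sgSETD8 regions ranked from 4469 for RETREG1 to 14719 for SEMA5A-AS1, of 18061. OSMR had 3 sparse sgSETD8 regions, the best at rank 1295, and 1 dense sgSETD8 region of 0.603 kb at rank 12181.

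The genes of 5p were also described by lists drawn up by role. Of 13 blood and immune genes, 9 had more and 2 fewer regions in sparse sgSETD8 than in sparse sgNT, and 5 had more and 0 fewer in dense sgSETD8 than in dense sgNT. The list held 8, 21, 17 and 26 regions in the order sparse sgNT, sparse sgSETD8, dense sgNT, dense sgSETD8. PTGER4 had 5, 6, 7 and 9 regions. IL7R had 0, 2, 3 and 6, and FYB1, an adaptor of blood cell signalling, had 0, 1, 2 and 4. DAB2, an endocytic adaptor, had 1, 0, 1 and 2. The complement genes C6, C7 and C9 had 4, 1 and 1 regions in sparse sgSETD8 and 0 in every other table. CARD6 and LIFR had no assigned region in any table.

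FYB1 was one gene whose dense regions were both longer and more numerous with sgSETD8. Its body was covered over 25.1 kb by 2 regions in dense sgNT and 43.5 kb by 4 regions in dense sgSETD8, and over 0 kb in both sparse tables. IL7R was covered over 9.81 kb and 10.3 kb by 1 region in each dense table, so the extra regions assigned to it lay outside the gene.

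Of 11 mitochondrial genes, 4 had more and 0 fewer in the sparse pair, and 2 had more and 1 fewer in the dense pair. MRPS30, of the mitochondrial ribosome, had 0, 4, 1 and 1 regions. OXCT1, which starts the breakdown of ketone bodies, had 2, 4, 2 and 3, and DNAJC21 had 1, 1, 2 and 4. DNAJC21, one of the 2 members with more regions in dense sgSETD8, is known as a factor of cytosolic ribosome maturation, although it was filed in this list. NNT had 0, 0, 1 and 0 assigned regions, yet its body was covered over 43.8 kb in dense sgNT and 47.9 kb in dense sgSETD8. SDHA, of succinate dehydrogenase, NDUFS6, of respiratory complex I, and NADK2, the mitochondrial NAD kinase, had regions in the dense tables alone, with the same number in both. FASTKD3 had no assigned region in any table.

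Of 12 growth, kinase and cell cycle genes, 7 had more and 1 fewer in the sparse pair, and 2 had more and 2 fewer in the dense pair. RICTOR, the defining subunit of mTOR complex 2, had 1, 2, 2 and 2 regions, and SKP2, an F-box protein of cell cycle control, had 0, 0, 1 and 1. SLC1A3, filed in this list, had 3, 2, 3 and 6. The hormone receptors GHR and PRLR had 3 regions each in sparse sgSETD8 and 0 elsewhere. TERT and its neighbour CLPTM1L had no assigned region in any table, and the body of TERT held none.

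Of 16 chromatin, RNA and DNA genes, 5 had more and 3 fewer in the sparse pair, and 2 had more and 3 fewer in the dense pair, with 8, 13, 25 and 24 regions. NIPBL had 2, 3, 3 and 2 regions. DROSHA had 0, 1, 2 and 4, and its body was covered over 7.10 kb in dense sgNT and 29.5 kb in dense sgSETD8. NUP155 had 0, 0, 3 and 1. PRDM9, the methyltransferase that places meiotic recombination, had 4 regions in sparse sgSETD8 and 0 elsewhere. BRD9 and RPL37 had no assigned region in any table.

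Of 12 lipid and membrane genes, 5 had more and 1 fewer in the sparse pair, and 2 had more and 1 fewer in the dense pair. GOLPH3 had 3, 1, 1 and 1 regions, ANKH, which exports pyrophosphate and ATP, had 1, 2, 2 and 3, and PLCXD3 had 5 in sparse sgSETD8 and 0 elsewhere. HMGCS1, of cholesterol synthesis, had 0, 0, 1 and 2. SLC12A7, SLC9A3 and SLC6A19 had none in any table.

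Of 13 cytoskeleton and adhesion genes on the arm, 7 had more and 3 fewer in the sparse pair, and 3 had more and 0 fewer in the dense pair, with 10, 34, 7 and 17 regions. CTNND2, a neural catenin, had 1, 11, 1 and 2 regions, and DNAH5, a dynein of cilia, had 1, 5, 1 and 1. RAI14 had 1, 1, 2 and 6. MYO10 had 1, 0, 0 and 5 assigned regions. The body of SEMA5A held 0, 5, 0 and 1 regions although none was assigned to it.

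All 5 cadherins had more regions in sparse sgSETD8, with 38 against 2 in sparse sgNT, and 1 of them had more in dense sgSETD8. CDH18 had 1, 11, 1 and 2, CDH9 0, 10, 0 and 0, CDH12 1, 8, 0 and 0, CDH10 0, 5, 0 and 0, and CDH6 0, 4, 0 and 0. The bodies of CDH9 and CDH10 held 0 regions in every table, so the regions filed under them lie in the intergenic sequence between the cadherins. Among single genes, LINC02223 had the most regions in sparse sgSETD8, 12, followed by CTNND2, CDH18 and LINC02211 with 11 each and CDH9 with 10. In sparse sgNT, TRIO and PTGER4 had the most, 5 each, and RANBP3L had 4. In dense sgNT PTGER4 had 7 and FLJ32255 5, and in dense sgSETD8 PTGER4 had 9, ahead of IL7R, SLC1A3, RAI14 and WDR70 with 6 each.

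Of 8 developmental genes, 4 had more and 0 fewer in each pair. IRX1, an Iroquois homeobox gene, had 7 regions in sparse sgSETD8 and 0 elsewhere, all outside the gene body, and SPEF2 had 1, 1, 1 and 3. Of 8 ubiquitin and autophagy genes, 6 had more and 0 fewer in the sparse pair, and 5 had more and 0 fewer in the dense pair. Those 5 include FBXO4 and MARCH6, whose dense sgSETD8 regions share bases with dense sgNT regions filed under other genes. For these genes the dense difference is thus one of label and not of presence. WDR70, filed in this list, had 1, 3, 3 and 6 regions, and its body was covered over 25.3 kb in dense sgNT and 67.7 kb in dense sgSETD8. In the sparse pair each of the 9 lists had more members with a higher count in sgSETD8 than with a lower one, as did the genes of the whole arm.

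Independently of the assignment, bodies of protein-coding genes were tested for a region inside them. Of 167 on 5p, 32 (19.2%), 70 (41.9%), 73 (43.7%) and 83 (49.7%) held one, against 11.6%, 13%, 32.6% and 35.7% of genes elsewhere. The share on 5p was thus higher than elsewhere in all 4 tables, sgNT included, and the widest gap was in sparse sgSETD8. The difference between the dense tables was 10 genes.

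Transcription starts were covered almost by dense regions alone, with 1, 2, 40 and 63 of 391 starts on 5p. Between the dense tables, 35 starts were covered in both, 28 in sgSETD8 alone (7.16%, where all chromosomes had 3.26%) and 5 in sgNT alone (1.28%, where all chromosomes had 1.96%). The dense sgSETD8 table thus reached more starts on 5p than the dense sgNT table, at a higher share than over all chromosomes. This count comes from 1 pair of tables, in the contrast where more sgSETD8 regions on 5p were already known, and several starts belong to one gene or to a divergent pair that shares a region.

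Starts covered in dense sgSETD8 alone included those of the mitochondrial genes NNT, NDUFS6, MRPL36 and 1 start of OXCT1. They also included DROSHA, whose upstream window is printed above, the RNA-binding protein ZFR, PRKAA1, FBXO4, SLC1A3, DNAJC21, the calcium-binding protein PDCD6, the exocyst subunit EXOC3 and ICE1, a subunit of the little elongation complex. Starts covered in dense sgNT alone were those of FASTKD3, DAB2, MRPS30, its divergent transcript MRPS30-DT and LINC02212. Mitochondrial genes were thus found in both sets.

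Signal density can be compared between the dense tables at regions of nearly the same extent. Regions whose members in each table cover at least 90 percent of each other numbered 1769, of which 16 were on 5p. The median log2 ratio of density over all of them, sgSETD8 over sgNT, was -0.26, and values are given relative to it. On 5p the median was 0.16 with an SD of 0.19 over the 16 regions, 12 above 0 and 4 below, and before the subtraction 4 were above 0 and 12 below. Over all matched regions the SD was 0.24. Of 41 arms 5p was in place 1, closely followed by 10p at 0.14 and 3p at 0.13, while 5q was at 0.02 over 72 regions.

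IL7R was highest among them, at 0.51, with a density of 0.447 per bp in dense sgNT over chr5:35869791-35884611 and 0.528 in dense sgSETD8, and its rank went from 3320 to 2600. PTGER4 was next at 0.29, with densities of 1.58 and 1.61, and its rank went from 181 to 119. ATPSCKMT, a methyltransferase of the ATP synthase c subunit, and MED10, a Mediator subunit, were at 0.28 each. These 4 were the regions whose density was higher in dense sgSETD8 also before the subtraction.

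The lowest was HMGCS1 at -0.18, with densities of 0.877 and 0.644. BRIX1 was at -0.16 with densities of 3.11 and 2.32, TENT4A at -0.14 with 2.02 and 1.52, and NIPBL at 0.08 with 1.19 and 1.05. At BRIX1, NIPBL and GOLPH3 (0.17), whose upstream windows are printed above, the matched regions include the start of the gene. Matched 5p regions of both signs were thus found at gene starts.

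**Figure D5:**
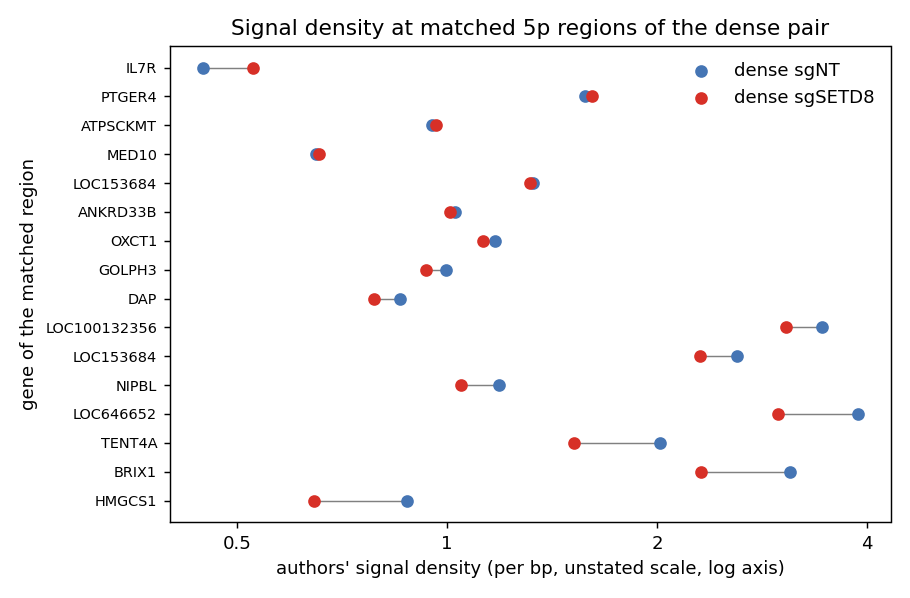
The authors' signal density per bp (horizontal axis, log scale, scaling not stated) at the 16 matched 5p regions of the dense pair, by assigned gene (vertical axis), with 1 point for sgNT and 1 for sgSETD8. Density is higher in sgSETD8 at IL7R, PTGER4, ATPSCKMT and MED10 and lower at the other 12, while over all matched regions the median log2 ratio is -0.26.

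The boundary of the arm decided no member. The last 5p region ended at 43773241 in sparse sgNT (NNT-AS1) and at 44820326 in dense sgNT (MRPS30). The first region beyond the boundary lay at EMB in all tables, from 50430308, 50292864, 50374362 and 50376165. The sparse sgSETD8 table differed from the other 3 in several values at once: its share on 5p, the share of intergenic and LINE regions, and the share found again in the other pair. The part of these in the 5p counts was not tested.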

How the data were processed

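The 4 Kasumi-1 samples, all H3K27ac CUT&Tag, were grouped by their titles. Reads were trimmed with cutadapt and aligned to hg38 with Bowtie2, per the submitters' processing notes. Which programs called, joined and annotated the peaks is not given in the sources used here. Deposited by the authors were 4 region tables with 1 value column, a signal that equals a density of at most 4 decimals times the region's width, with a scale that is not stated. Depth is therefore unknown, and the intervals cover counting alone.

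Each table was given its group from the guide in its region identifiers. The sparse sgNT identifiers name just the cell line, so it was read as sgNT for lack of a SETD8 guide name. The tables could not be tied to single samples. Value columns without a group numbered 0. Regions off chromosomes 1 to 22, X and Y were dropped, and an overlap needed at least 1 bp. Centromere positions were rounded to whole Mb. Genes are those of the deposited annotation, and bodies, starts and upstream windows come from RefSeq tables of GRCh38.p14. No input library was analysed here.

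Named genes are those of the 10 best-ranked 5p regions of each table, the 10 best-ranked without a counterpart, the 5 genes with most regions, the 5 highest and 5 lowest matched regions, and list members with a region, passing over LOC names. Genes named at 0, gene bodies, starts and the stretches were picked after their values were seen. The last 5p region of each sgSETD8 table is not reported here. The members and gene lists were chosen with earlier results of these data known. Interval and overlap code was tested on simulated data. The scripts ran under scipy 1.17.1, pandas 2.3.3, numpy 2.4.6 and matplotlib 3.10.9 (Python 3.11.15).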

Additional observations from a re-analysis of the deposited data

How the results depend on the processing

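Alternatives numbered 53, of which 44 were labelled the same, 9 moved and 0 reversed. The same meant a change below the SD for log2 ratios. For percentages it meant a value inside the exact interval, and for median widths one inside the interquartile range. A percentage or a width could not be labelled reversed. A single pair always lies within the SD of both pairs, so its label was fixed beforehand. The counts are therefore given as description. Each pair of tables alone gave log2 share ratios on 5p of 0.21 to 1.99 by number of regions and 0.21 to 2.73 by covered length, so the size rests on the sparse pair. When a counterpart had to cover at least 50 percent of a region, 26.4% of dense sgNT and 57.8% of dense sgSETD8 regions on 5p had none. Over the 5000 best-ranked regions of each table, 25.8% of dense sgSETD8 regions had none, 18.6% were intergenic, and median widths were 11522 bp in dense sgNT and 13010 bp in dense sgSETD8. Over regions of at least 500 bp, 88.6% of sparse sgNT and 19.1% of sparse sgSETD8 regions were found in a dense table, and 25.7% of sparse sgNT regions were intergenic. These settings keep fewer regions, or ask for more overlap, by construction. No analysis of paired samples was possible because the labels carry no replicate numbers. The pairs were formed from tables with like names and are not known to be paired samples. The means and SDs over pairs thus describe pairs of tables. Signal depth is unknown, so whether a region missing from a table was unacetylated or below detection cannot be told apart.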
